A study of Mus musculus with 12 samples.

Results

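The comparison described here is the effect of genetic background on gene expression in mouse embryonic stem cells, taken as an average over the alleles of a chromosome 13 segment. RNA-seq was carried out on 4 groups with 3 libraries each. B6 is the inbred strain C57BL/6J and D2 is the inbred strain DBA/2J. B6-13D2, of strain B6.D2-(rs30079041-rs51756099)/Bakr, carries a D2 segment of chromosome 13 on the B6 background, and D2-13B6, given in the sample labels as D2.B6-(rs29224292-rs13469455)/Bakr, carries a B6 segment on the D2 background. B6 and B6-13D2 are called the B6 background below, with 6 libraries, and D2 and D2-13B6 the D2 background, with 6 libraries. All groups grew in serum medium with LIF, 1 μM PD0325901 (a MEK inhibitor) and 3 μM CHIR99021 (a GSK3 inhibitor), with no group receiving another treatment. Embryonic stem cells are pluripotent cells derived from the early embryo, and these conditions hold them in the naive state.

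A gene was tested for the mean of D2 and D2-13B6 minus the mean of B6 and B6-13D2, and it was called where the edgeR quasi-likelihood test gave a Benjamini-Hochberg adjusted p under 0.05. Each segment allele occurs on both backgrounds, so the average is made of a pair of comparisons that share no library. D2 against B6-13D2 compares backgrounds where both carry the D2 segment, and D2-13B6 against B6 compares them where both carry the B6 segment. A gene was kept as a background gene where it was called and the log2 fold change had the same sign in both pairs. Of 17148 genes tested, 12599 were called (73.5%), and 8507 of these were background genes (49.6%). The D2 background was higher for 3781 of them (22.0%) and lower for 4726 (27.6%). The split depended on the setting: 44.4% of background genes were higher, 48.6% with RLE factors, another scaling of the libraries, and 58.3% at a minimum absolute log2 fold change of 1 in the average. Where both pairs were called with at least that change, 50.6% were higher.

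Each strain is represented by a single cell line according to the protocol, so effects of strain and of line cannot be told apart. The labels conflict on the lines: B6 replicate 3 has another line name than B6 replicates 1 and 2, and the D2 titles and cell line field differ. Without B6 replicate 3, 12486 genes were called and 8446 were background genes. The titles call the libraries technical replicates, whereas the protocol speaks of independent cultures, and the p-values measure only the spread between these libraries, which may be technical. For D2-13B6, the labels and the series text also name different distal markers of the segment. Library totals were 22184196 to 36411799 expected counts, with both extremes in D2.

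Inbred strains differ at many sites across the genome, and an expression difference can arise from a variant beside the gene (in cis) or from one elsewhere (in trans). A reciprocal congenic pair exchanges a single region and leaves the rest of the genome as background. In embryonic stem cells the networks of interest include the pluripotency factors, the silencing machinery that deposits H3K9 methylation, and genes of innate immunity, which pluripotent cells hold at low levels.

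ES cell identity was checked with 8 markers, among them Pou5f1, Nanog and Esrrb, which encode transcription factors of the pluripotency network. Their summed level was 3846 to 4202 CPM (counts relative to the scaled library size) in B6, 4383 to 4675 in B6-13D2, 2907 to 2975 in D2 and 3552 to 3622 in D2-13B6, so every library carried the markers at a high level. The D2 background was at 0.657 times the B6 background in the D2 segment pair and at 0.896 times in the B6 segment pair. Markers of feeder fibroblasts, the support cells on which such lines are often grown, were also high in every library. Whether feeders were present at collection is not given in the sources used here. The sum of 9 such markers was 9389 to 10196 CPM in B6, 3097 to 3184 in B6-13D2, 14185 to 16978 in D2 and 7736 to 8059.6 in D2-13B6. The direction differed between the pairs: D2 was at 5.0 times B6-13D2, whereas D2-13B6 was at 0.819 times B6. All 9 were called higher in the average, and 5 were background genes. Markers of primitive endoderm summed to between 7.21 and 15.4 CPM per library, with Foxa2 under the filter on low counts. Trophoblast markers summed to between 15.2 and 22.8 CPM, with Elf5 under the filter, and neural markers to between 3.23 and 8.0 CPM, with Neurog2 and Dcx under it.

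**Figure D1:**
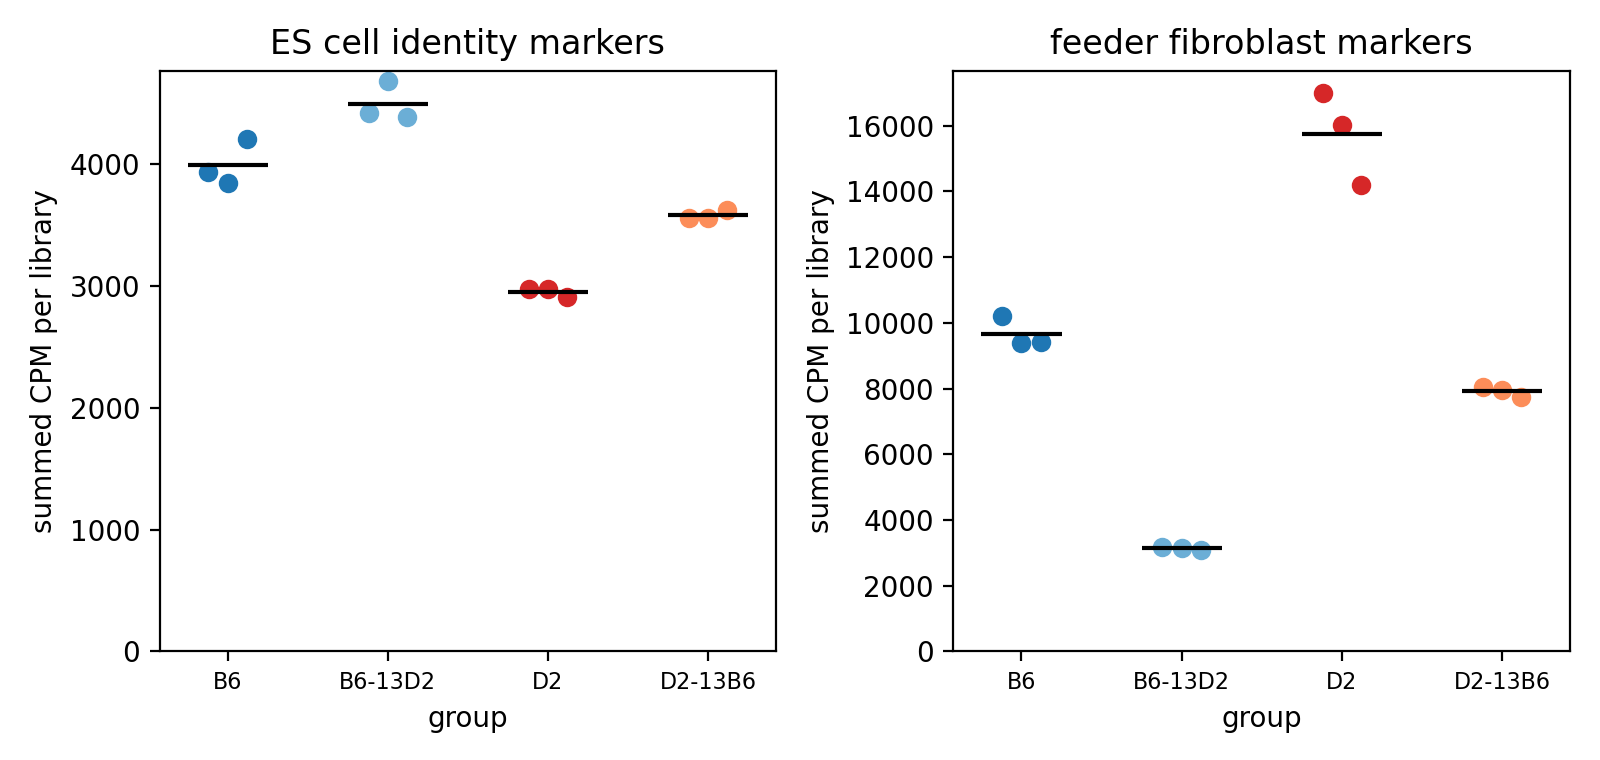
Summed CPM of 8 ES cell identity markers (left) and 9 feeder fibroblast markers (right), with 1 point per library, a line at the group mean, and both axes starting at 0. The fibroblast sum is lowest in B6-13D2 (3097 to 3184 CPM) and highest in D2 (14185 to 16978 CPM), while the identity sum is lowest in D2 (2907 to 2975 CPM).

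The fibroblast genes show what the requirement of equal sign separates. Col1a1, a chain of type I collagen, had 6829.5, 6248 and 6207 CPM in B6, 2135, 2079.9 and 2063 in B6-13D2, 11311, 10657 and 9485 in D2, and 5308, 5257 and 5116 in D2-13B6. Its averaged log2 fold change was 1.01 (SE 0.0353, edgeR adjusted p 2.93e-14), composed of 2.32 in the D2 segment pair and -0.30 in the B6 segment pair, and it was not a background gene. Thy1, a fibroblast surface protein, behaved the same way, with 2.09 and -0.33. Over all genes tested, 38.7% were called higher and 34.7% lower in the average, and the shares of the gene lists are to be read against these and against 22.0% higher and 27.6% lower background genes. Among 18 fibroblast genes, 18 were called higher in the average and 6 were background genes, with medians of 2.31 and -0.32. Among 40 collagen genes tested, 29 were called higher (72.5%) and 11 were higher background genes (27.5%), with medians of 2.03 and -0.16. Of 35 clustered protocadherins, adhesion proteins encoded in tandem arrays, 32 were called higher (91.4%) and 9 were background genes (25.7%), 3 with undivided reads alone, and the medians were 2.03 and -0.17. Dcn, which encodes the matrix proteoglycan decorin, was a background gene: it was higher by 2.11 in the D2 segment pair and by 1.09 in the B6 segment pair, with group means of 1.37 CPM in B6, 0.64 in B6-13D2, 2.81 in D2 and 2.94 in D2-13B6. Postn (3:54361109-54391037), the matrix protein periostin, was one too, at 26.3 to 85.6 CPM in the B6 background and 108 to 185 in the D2 background, with 2.66 and 0.45 in the pairs. Col9a2 (4:121039385-121055322), a collagen gene of cartilage, went the other way and was lower by -2.94 and -1.95, at 10.1 to 15.5 against 1.92 to 2.93 CPM. Because these are bulk samples, fewer cells of a type and less RNA per cell cannot be told apart. The part of the fibroblast level in the results that follow was not tested, and the medians of the gene lists are therefore given in both pairs, that of the D2 segment pair first.

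D2 against B6-13D2 called 12800 genes (74.6%), 6512 of them higher (38.0%) and 6288 lower (36.7%) in D2, and had a median absolute log2 fold change of 0.534. D2-13B6 against B6 called 10120 genes (59.0%), of which D2-13B6 was above B6 for 4195 (24.5%) and below it for 5925 (34.6%), with a median of 0.30. Calls were thus more often higher than lower in the D2 segment pair and more often lower in the B6 segment pair. Across the 17148 genes the log2 fold changes of the pairs had Pearson's r = 0.416 and Spearman's rho = 0.204, given as a description over genes, which are not independent replicates and share libraries within a pair. The sign was the same in both pairs for 9629 tested genes, or 56.2%. Of the called genes, 4092 had pairs of opposite sign, and 3252 of these took the sign of the D2 segment pair. Both pairs were called with the same sign for 4986 genes (29.1%), 1958 higher (11.4%) and 3028 lower (17.7%) in the D2 background, and with opposite signs for 3134. Among the background genes, the pairs differed in size for 4736 (55.7%) by the test of the difference, and 3526 of these were larger in the D2 segment pair.

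**Figure D2:**
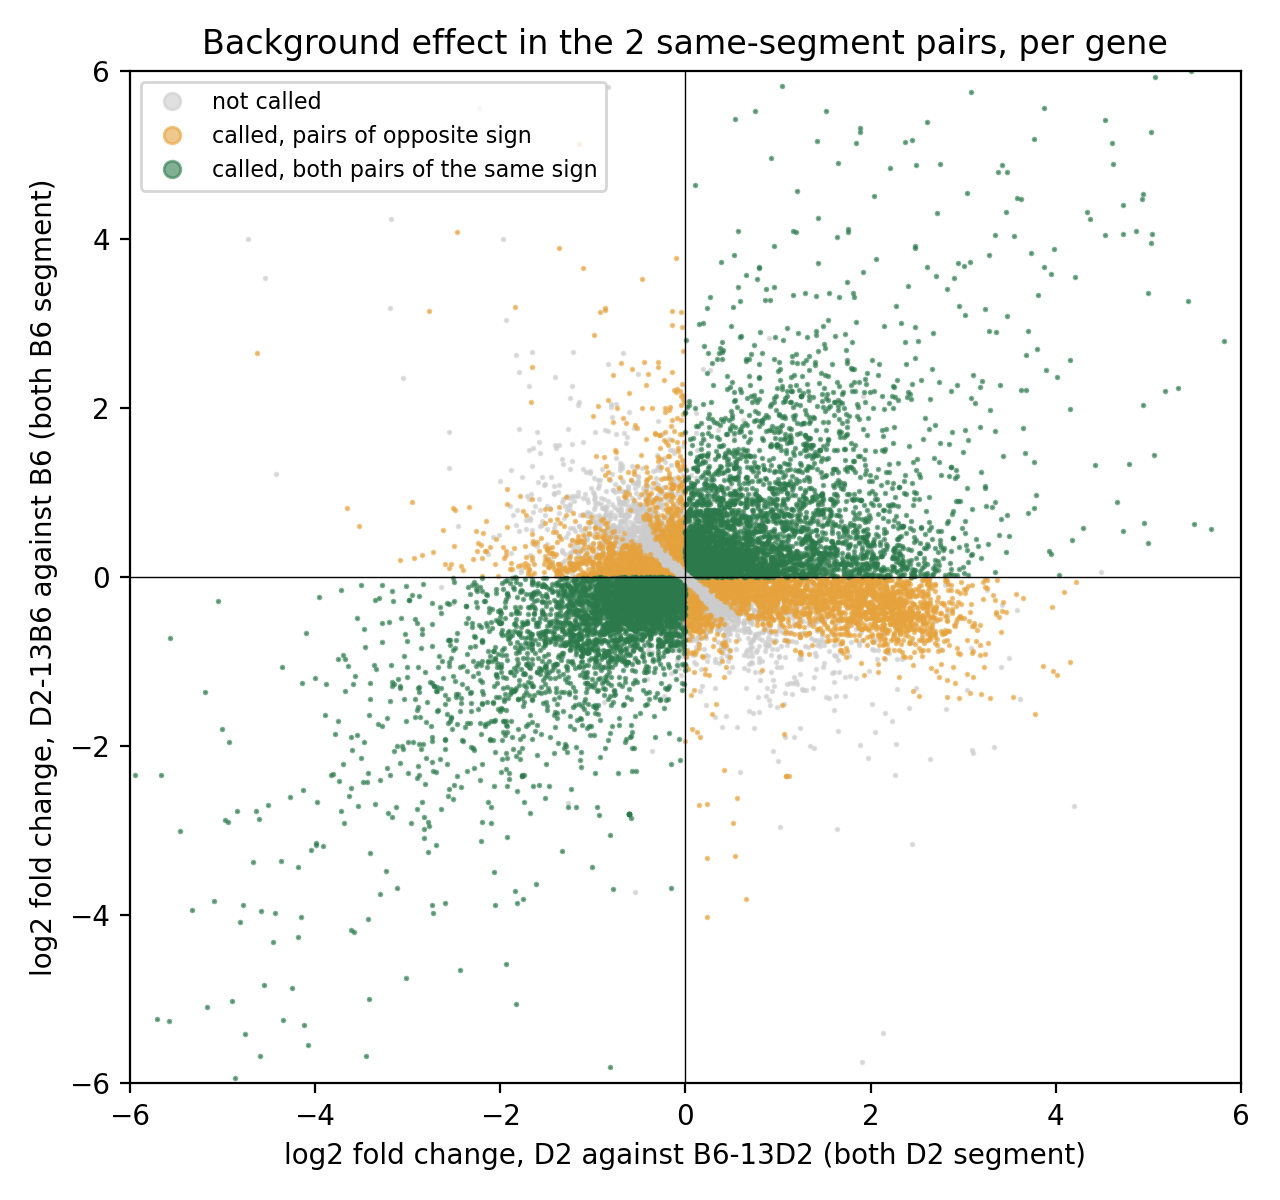
Log2 fold change of D2 against B6-13D2 (horizontal) and of D2-13B6 against B6 (vertical), with 1 point per gene tested and 91 genes outside the axis limits of 6 in either direction. Background genes lie in the upper right and lower left, and called genes whose pairs have opposite sign lie mostly at the lower right, where D2 exceeds B6-13D2 and D2-13B6 is below B6.

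The background contrast was set beside the other contrasts of the 4 groups. The median absolute log2 fold change over all genes was 0.353 for background, against 0.156 for the segment allele averaged over backgrounds, which called 7524 genes (43.9%), and 0.272 for congenic against parental lines, which called 11059 (64.5%), 5325 higher (31.1%) and 5734 lower (33.4%) in the congenic lines. These contrasts use the same 12 libraries and are given side by side without a test of their difference. For a typical background gene, 73.6% of the variation between the 4 group means lay along the background contrast, as the median, against 45% over all genes. The rule for members used this contrast, so that value is a description. The share exceeded 90% for 1831 background genes (21.5%).

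The 6 libraries of each background did not overlap for 4473 genes (26.1%), all of them background genes, 1742 higher and 2731 lower in the D2 background. No overlap requires the same sign in both pairs, so that all were background genes follows largely from the construction. Absence of overlap was also required of most genes named below by rule, and is not a separate result for them. A change of at least 2-fold in the smaller of the pairs, together with no overlap, was met by 899 genes, 445 higher and 454 lower, which is 5.24% of the genes tested. Among these, 56 were processed pseudogenes (6.23%, against 2.23% of the tested genes), and 41 of the 56 had divided reads. Reads are called divided here unless the expected count was whole, to within 1e-06, in every library, since a read that fits several genes is then shared between them and the level of each is uncertain. Divided reads are stated where the values of a gene that had them are described, and not at every mention. Whether counting used the strand was not given in the sources used here, so genes that overlap on the annotation are uncertain too, as for Aim2 with Cadm3, Dnmt3l with Aire, Mest with Copg2, Pfkm with Senp1 and Olig1 with Gm15966.

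The genes lowest in the D2 background included a pair of neighbouring genes on chromosome 16. Olig1 (16:91269772-91271933) encodes a basic helix-loop-helix factor of the oligodendrocyte lineage. Its level was 28.4, 28.8 and 29.1 CPM in B6 and 37, 38.2 and 37.4 in B6-13D2, against 0.583, 0.751 and 0.819 in D2 and 0.932, 0.747 and 0.544 in D2-13B6. Olig1 was chosen by a rule that required no overlap between the backgrounds. Its averaged log2 fold change was -5.47 (SE 0.0722, edgeR adjusted p 1.86e-19). Olig2 (16:91225457-91228677), its paralogue, had 23.4, 23 and 27.5 CPM in B6 and 36.6, 42.7 and 38.2 in B6-13D2, and at most 0.11 CPM in any D2 or D2-13B6 library. The averaged log2 fold change of Olig2 was -8.87 (SE 0.138), and on the B6 background every B6-13D2 library was above every B6 library. Hunk (16:90386013-90499553), a protein kinase gene on the same chromosome, went the other way: it had 11.1 to 14 CPM over the B6 background libraries and 66.6 to 76.6 over the D2 background libraries, a log2 fold change of 2.54 (SE 0.0376).

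Nod1, Aim2 and Ubd were also among the lower genes, although the list of interferon and nucleic acid sensing genes had more higher than lower background genes, 20 against 7. Nod1 (6:54923949-54972612), a cytosolic receptor for bacterial peptidoglycan, had 53.1, 50.8 and 55.9 CPM in B6 and 66.3, 65.7 and 60.2 in B6-13D2. It had 3.5, 4.25 and 2.73 CPM in D2 and 2.96, 3.49 and 3.37 in D2-13B6. The fall was of nearly the same size in both pairs, -4.15 (SE 0.0914) and -4.03 (SE 0.0907), and the difference between them was not called (adjusted p 0.483). Aim2 (1:173350879-173466040), a sensor of cytosolic DNA, had 41.1 to 49.7 CPM over the B6 background libraries and 2.75 to 7.03 over the D2 background libraries. Its log2 fold change was -3.72 in the D2 segment pair and -2.77 in the B6 segment pair, and this difference was called (adjusted p 3.90e-06). Ubd (17:37193892-37196095), a ubiquitin-like protein induced by interferon, had 9.4 to 13.7 CPM in the B6 background and 3 counts in all 6 D2 background libraries together, a ratio of 702 with a counting interval of 240.2 to 3405 at 95%.

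The other genes of the lower set had varied roles. Pou2f3 (9:43123939-43210369), a POU-domain factor of tuft cells, had 28.7 to 43.9 CPM in the B6 background and 0.68 to 2.21 in the D2 background, with D2 above D2-13B6. Tgm1 (14:55700009-55713926), an enzyme that cross-links the skin barrier, had 45 to 59.5 and 3.95 to 6.46 CPM. Hal (10:93488768-93519304), which degrades histidine, had 9.52 to 14 and 0.541 to 1.74 CPM. AA467197 (2:122636986-122641191) had 13.7 to 18.7 and 0.458 to 1.22 CPM, and Elobl (11:88964658-88966931) had 8.57 to 12.2 and 0.416 to 1.07 CPM. All 5 genes were chosen with no overlap between the backgrounds, and had averaged log2 fold changes from -4.79 for Pou2f3 to -3.36 for Tgm1.

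Among genes higher in the D2 background, Adam23 (1:63445891-63596276), a membrane protein of the ADAM family, had 6.63, 6.8 and 7.07 CPM in B6 and 5.26, 5.81 and 4.6 in B6-13D2, against 70.2, 72.4 and 79 in D2 and 72, 67.4 and 68.8 in D2-13B6. The averaged log2 fold change of Adam23 was 3.58 (SE 0.0493, edgeR adjusted p 2.41e-19). Like the other genes of this paragraph, it was chosen with no overlap between the backgrounds. Mmrn2 (14:34375465-34404287), an endothelial extracellular matrix protein, changed by 2.75 in the D2 segment pair and 4.89 in the B6 segment pair, since B6-13D2 (5.3 to 5.75 CPM) was above B6 (1.49 to 2.06) and D2-13B6 (53.6 to 55.4) was above D2 (34.4 to 38.9). Pramel7 (2:87489087-87497093), a PRAME family gene linked to the ground state of pluripotency, had 5.17 to 6.22 CPM in the B6 background and 28.1 to 44 in the D2 background. Tnfrsf8 (4:145267137-145315164), the receptor CD30, had 4.26 to 7.72 and 31.2 to 36.9 CPM. Ccnb1ip1 (14:50789248-50807732), required for meiotic crossing over, had 1.05 to 1.94 and 11.2 to 14.3 CPM. Kcnf1 (12:17172100-17176888), a potassium channel subunit, had 0.436 to 1.33 and 5.78 to 8.54 CPM. Tent5c (3:100451628-100489324), a poly(A) polymerase, had 8.5 to 9.87 CPM in D2 and 18.8 to 20.1 in D2-13B6, against 1.58 to 4.37 in the B6 background, so the D2 background groups also stood apart from each other.

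**Figure D3:**
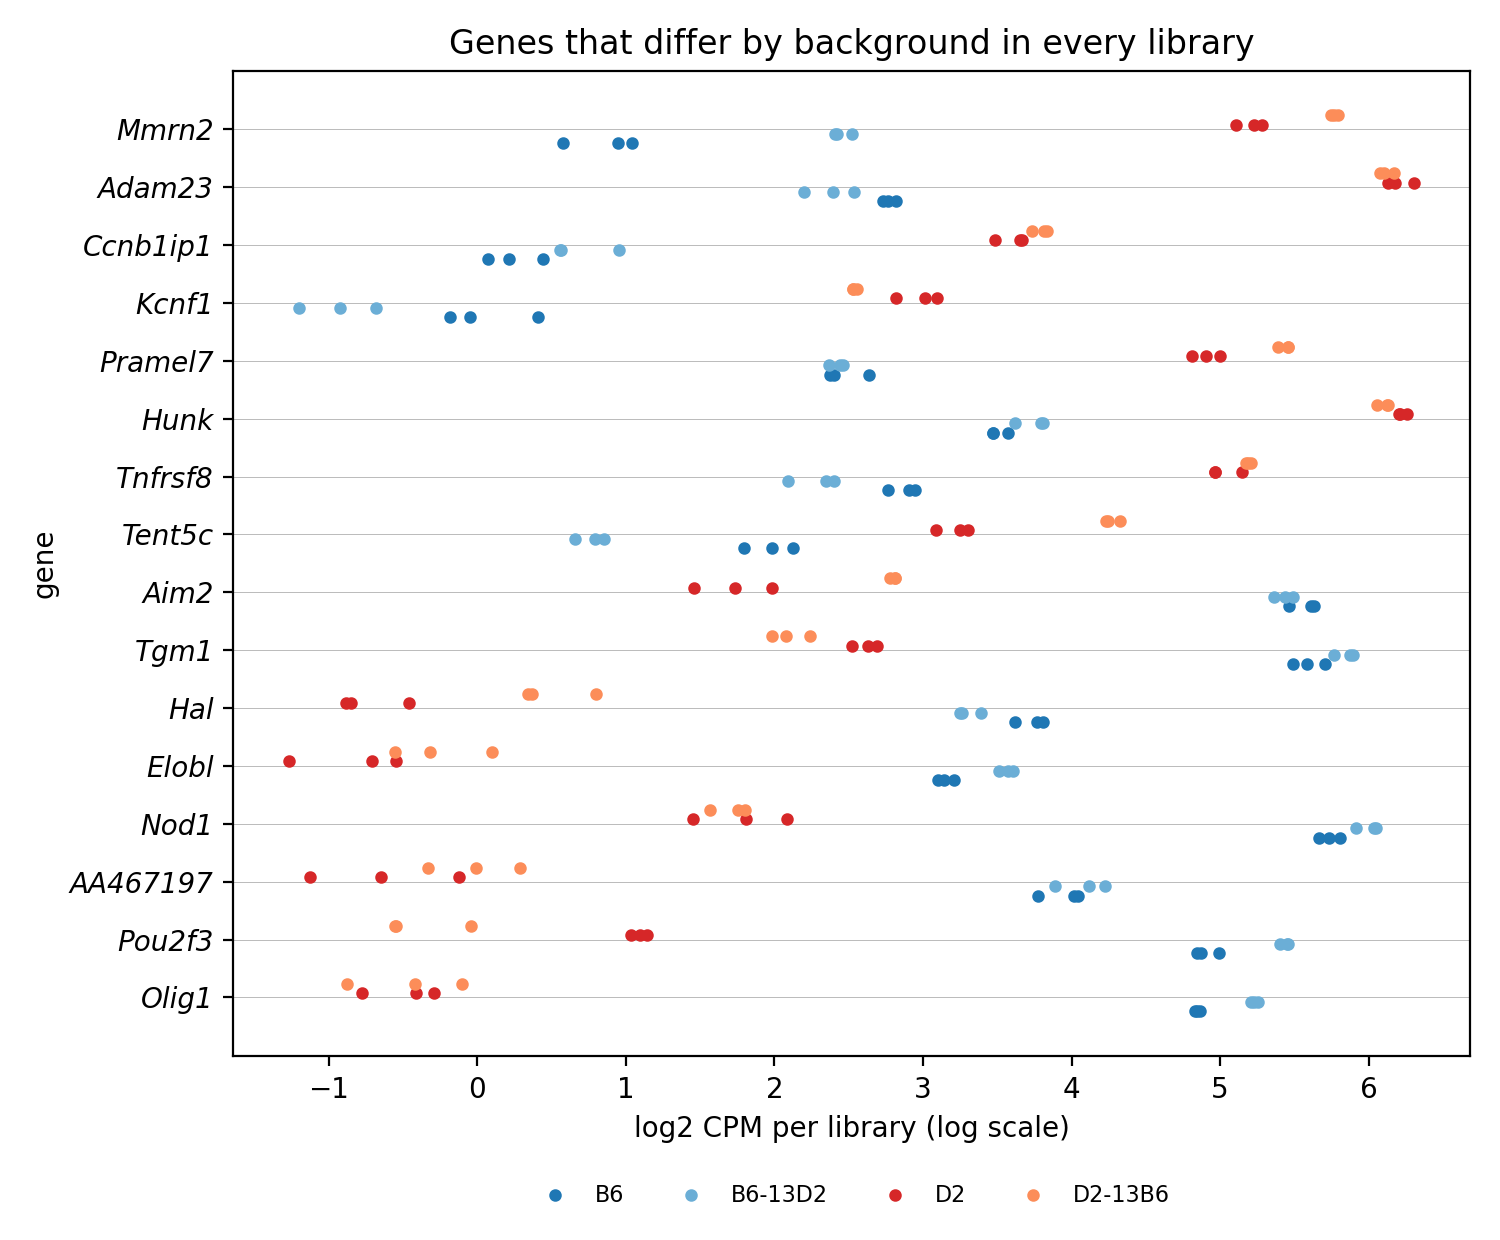
Log2 CPM of 8 genes higher and 8 genes lower in the D2 background, with 1 point per library and 3 points per group. The genes were chosen for no overlap between the backgrounds. The B6 and B6-13D2 points (blue) are therefore separate from the D2 and D2-13B6 points (red and orange) for every gene. For Olig1 the ranges are 28.4 to 38.2 against 0.544 to 0.932 CPM.

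Several genes were near 0 in every library of a background. Acsm4 (7:119690026-119714565), a mitochondrial acyl-CoA synthetase gene, had at most 3 counts in any B6 background library and 5.25 to 6.25 CPM in the D2 background, a ratio of 183 (95% counting interval 78.5 to 564). Arhgef38 (3:133112278-133234949), a guanine nucleotide exchange factor gene, had a ratio of 78.9 (41.6 to 173), and Zbbx (3:75037907-75165034), with a single count in the whole B6 background, one of 216 (38.7 to 8526). The unnamed gene model Gm37819 on chromosome 3 was also higher, with a ratio of 29.4 (16.8 to 56.8). In the other direction, Sgo2b (8:63924694-63952248), a shugoshin gene, was 55.7 times as high in the B6 background (27.1 to 139). Tmprss11f (5:86521898-86632424), a membrane serine protease, was 29.9 times as high (12.8 to 92.0), and the transketolase-like gene Tktl2 (8:66511756-66518335) was 14.0 times as high (7.61 to 29.2). These intervals cover counting error only and leave out the spread between libraries and lines. Reads were also not counted by molecular identifiers. The genes were chosen for at most 3 counts in every library of a background, which favours large ratios.

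Among the pluripotency genes, the naive factors were lower in the D2 background. Of 13 tested, 12 were called lower and none higher, and 11 were background genes, against 34.7% of all genes called lower. Only 6 of the 13 were called lower in both pairs, which held for 17.7% of all genes. In the B6 segment pair Prdm14 gave -0.03 and Klf2 -0.01, and in the D2 segment pair Tbx3 gave 0.0. The median log2 fold change was -0.50 in the D2 segment pair and -0.27 in the B6 segment pair, beside 0.00 and -0.06 over all genes. Tfcp2l1 (1:118627945-118685168), a target of LIF and STAT3 signalling, had 880.3, 855 and 832 CPM in B6, 1119.8, 1042 and 1084 in B6-13D2, 433, 434 and 437 in D2, and 505, 499.5 and 495 in D2-13B6. Each D2 background library was below each B6 background library, at a log2 fold change of -1.04 (SE 0.0236). Nr5a2, a nuclear receptor that can activate Pou5f1, was lower by a like amount in both pairs, -0.79 and -0.74. Klf5 was lower by -1.02 and -0.39, and Esrrb by -0.50 and -0.27. Nanog was lower in the average (-0.31, SE 0.0284), but its B6 segment pair gave -0.02 (adjusted p 0.697; divided reads), with 639 to 692 CPM in B6 and 653 to 672 in D2-13B6, so for Nanog the groups overlapped there.

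Of 14 core pluripotency genes, 9 were called lower (64.3%, against 34.7% of all genes) and 3 higher. Of these, 8 lower (57.1%, against 27.6%) and 3 higher ones were background genes, but 4 lower ones with undivided reads alone. The medians were -0.52 and -0.14. Pou5f1, which encodes OCT4 and had divided reads, was lower by -0.53 in the D2 segment pair and -0.16 in the B6 segment pair. Lin28a (4:134003330-134018841), an RNA-binding protein that blocks maturation of let-7, had 173 to 201 CPM in the B6 background and 65.1 to 78.7 in the D2 background, with -1.40 and -1.32 in the pairs. Fgf4, an autocrine differentiation signal, was lower by -1.57 and -0.72, and Dppa3, a maternal factor that limits DNA methylation, by -0.95 and -2.73. Dppa2, an activator of early embryonic genes with divided reads, was higher by 1.11 and 0.75. Of 12 formative and primed genes, markers of the state that follows naive pluripotency, 9 were called higher (75.0%, against 38.7% of all genes) and 1 lower, and 7 higher ones were background genes (58.3%, against 22.0%), with medians of 0.20 and 0.33. Lef1 (3:131110471-131224356), a transcription factor of the Wnt pathway, had 7.74 to 8.73 CPM in the B6 background and 23.9 to 35.1 in the D2 background, a log2 fold change of 1.84 (SE 0.0459). Several of these genes are also among the ES identity markers, whose sum was at 0.657 times in the D2 segment pair and at 0.896 times in the B6 segment pair. The fibroblast sum was at 5.0 and 0.819 times in these pairs, and its part in the pluripotency values was not tested.

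Of 16 DNA methylation genes tested, 7 were called higher and 7 lower (43.8% each, against 38.7% and 34.7% of all genes), with 4 higher and 6 lower background genes (25% and 37.5%, against 22.0% and 27.6%). With so few genes these shares are near those of all genes, and the medians were 0.00 and -0.18. The 3 highest were Dnmt3l, Tet3 and Dnmt3b. Dnmt3l, the cofactor of the de novo methyltransferases, had means of 80.6 CPM in B6, 130.0 in B6-13D2, 173 in D2 and 237 in D2-13B6, so it was higher in the D2 background on either segment and higher in each congenic line than in the parental line of its background. Dnmt3b, a de novo methyltransferase with divided reads, was higher by 0.19 and 0.91 in the pairs. The dioxygenases that oxidise methylcytosine moved apart, with Tet3 higher by 1.05 and 0.88 and Tet2 lower by -0.49 and -0.52. Tet2 was also lower in the libraries with the D2 segment (-0.51, adjusted p 6.72e-10), at 190.1 to 209 CPM in B6, 135 to 143 in B6-13D2, 95.4 to 105 in D2 and 136 to 141 in D2-13B6, so B6-13D2 and D2-13B6 overlapped.

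Genes listed for H3K9 methylation and heterochromatin, the subject named in the series title, were mostly lower in the D2 background. The list also holds H3K9 demethylases, histone chaperones and lamina genes. Of 32 tested, 25 were called lower (78.1%, against 34.7% of all genes) and 3 higher, and 19 lower (59.4%, against 27.6%) and 3 higher ones were background genes, with medians of -0.34 and -0.15 in the pairs. With undivided reads alone, 13 lower and 1 higher were background genes. The demethylases Kdm3a, Kdm3b, Kdm4a, Kdm4b and Kdm4c were all called lower. Among the methyltransferases, Setdb1 (divided reads) was lower by -0.40 and -0.16 and Ehmt2 by -0.16 and -0.20, while Ehmt1 gave 0.0 and 0.31. Suv39h1 (divided reads) was called lower but was not a background gene, and Setdb2 and Suv39h2 were not called. Wiz, a zinc finger partner of the G9a and GLP methyltransferases, had 112 to 133 CPM in the B6 background and 68.1 to 86.9 in the D2 background, and its log2 fold change was -0.65 in the D2 segment pair and -0.66 in the B6 segment pair. Cbx3, a heterochromatin protein 1 gene, was lower by -0.58 and -0.53, and Resf1, a regulator of endogenous retroviruses, by -0.45 and -0.70. Of these, Wiz and Cbx3 had divided reads. Changes in the list were small, and 1.57-fold for Wiz was among the larger ones. Of 24 genome folding genes, the cohesin, condensin and boundary factors, 16 were called lower (66.7%) and 1 higher, with 14 lower background genes (58.3%) and 1 higher, and medians of -0.30 and -0.12. Ncapg2 (12:116405402-116463731), a subunit of condensin II, had 61, 61 and 62.5 CPM in B6, 61.9, 61 and 59.6 in B6-13D2, 42.4, 39.2 and 42.6 in D2, and 43.8, 41.8 and 40.2 in D2-13B6, and was lower by -0.56 and -0.55, a difference between the pairs of 0.01 (SE 0.0625, edgeR adjusted p 0.909). Ncapd2, a condensin I subunit with divided reads, had 389.6 to 419 CPM in the B6 background and 189 to 238 in the D2 background, and was lower by -1.06 and -0.79. Smc1a, a cohesin subunit, was lower by -0.35 and -0.37. Of 29 Polycomb genes, 12 were called higher (41.4%) and 11 lower (37.9%), and 8 were background genes in each direction (27.6%), near the shares of all genes (38.7%, 34.7%, and 22.0% and 27.6% for background genes). The medians were -0.19 and 0.11, and with undivided reads alone 4 were higher background genes. Ezh2, the methyltransferase of Polycomb complex 2, was lower by -0.53 and -0.28 (it overlaps Gm26625), at 139 to 178 CPM in the B6 background against 111 to 138 in the D2 background.

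Zinc finger genes named Zfp or Zscan, many of which encode KRAB proteins that bind transposons, had 107 called higher (26.7%, against 38.7% of all genes) and 169 lower (42.1%, against 34.7%) of 401 tested. Background genes among them were 67 higher and 126 lower, or 48.1% in all, near the 49.6% of all genes. Their median was -0.15 in the D2 segment pair and -0.04 in the B6 segment pair. The lower genes included 3 in a cluster on distal chromosome 4. Zfp534 (4:147673502-147702553) had 126, 130.4 and 131 CPM in B6, 138, 128 and 138 in B6-13D2, 20.9, 18.8 and 22 in D2, and 25.5, 27.2 and 25.7 in D2-13B6, a log2 fold change of -2.51 (SE 0.0365). Zfp989 (4:146971976-146990755) was lower by -2.64 and -2.75 in the pairs, and Zfp993 (4:146610961-146658160) by -3.08 and -2.20. All 3 had divided reads, so their levels are uncertain. Zfp951 (5:104813169-104860070), with undivided reads, was lower by -1.72 and -1.30, at 22.1 to 29.1 against 7.08 to 10.7 CPM. In the window from 145 to 150 Mb on chromosome 4, 24 of 112 tested genes were among the 899 with the large, non-overlapping change (21.4%, against 5.24% overall), 7 higher and 17 lower, and 21 of the 24 had divided reads.

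Two-cell-like genes, expressed in the early cleavage embryo and in rare ES cells, differed between the pairs. Of 16 tested, 9 were called higher (56.2%) and 1 lower in the average, but only 3 were background genes (18.8%, against 49.6% of all genes), since the median was 2.04 in the D2 segment pair and -0.61 in the B6 segment pair. Only 1 of the 16 had undivided reads, so these values are uncertain. Tdpoz4, a background gene of this list with divided reads, had 0 counts in all 6 B6 background libraries, 0.819 to 1.08 CPM in D2 and 0.068 to 0.137 in D2-13B6, at least 24.5-fold higher against a floor of 3 counts over the 6 libraries.

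Genes of interferon signalling and nucleic acid sensing are induced when a cell detects foreign nucleic acid, and many are activated through an interferon-stimulated response element (ISRE) in the promoter. Promoter sequence is shown for a pair of them that were higher in the D2 background, Isg15, a ubiquitin-like modifier, and Ifit1, which binds foreign RNA, with every match in capitals to GAAA, any 2 bases and GAAA, or on the other strand TTTC, any 2 bases and TTTC. The Isg15 stretch holds 3 matches, of which neighbouring ones overlap, and the Ifit1 stretch holds 2 that do not overlap. The stretches are from the RefSeq promoter table of the C57BL/6J reference (GRCm38.p6), Isg15 at chr4:156200857-156200926 on the minus strand and Ifit1 at chr19:34640755-34640824 on the plus strand, each 5′ to 3′ towards the gene.
Isg15: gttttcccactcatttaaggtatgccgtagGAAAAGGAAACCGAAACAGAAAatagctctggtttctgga
Ifit1: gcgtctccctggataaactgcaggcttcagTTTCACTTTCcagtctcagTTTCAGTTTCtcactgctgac
Within 250 bases upstream of the start, on either strand, this pattern was found in 11 of 32 listed genes with a promoter in the table (34.4%), in 5 of 13 listed genes that were higher background genes (38.5%), and in 936 of all 27025 promoters (3.46%). A match describes the sequence and is not a measured binding site.

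Isg15 had 10.4, 10.5 and 11.7 CPM in B6, 3.22, 3.32 and 3.89 in B6-13D2, 24.1, 25.1 and 22.6 in D2, and 13.4, 15.1 and 13.2 in D2-13B6. Both D2 background groups were above both B6 background groups, although the gap was 2.79 on the log2 scale in the D2 segment pair and 0.35 in the B6 segment pair, a difference that was called (adjusted p 7.32e-12). Ifit1, which had divided reads, followed the same order, with changes of 2.95 and 0.36 and an adjusted p of 2.84e-11 for their difference. Usp18, the protease that removes ISG15, had 1.7 to 5.96 CPM in the B6 background and 9.46 to 15.2 in the D2 background, with 2.92 and 0.90 in the pairs. Of 42 genes in the list, 28 were called higher (66.7%, against 38.7% of all genes) and 9 lower, with 20 higher (47.6%, against 22.0%) and 7 lower background genes, Aim2 being the lowest. Both pairs were called higher for 12 of the 42 and lower for 5, against 11.4% and 17.7% of all genes. In the B6 segment pair Ifih1 gave 0.04, Irf7 0.05 and Ifit3 (divided reads) 0.05. The list's median was 0.80 in the D2 segment pair and 0.16 in the B6 segment pair. In Isg15, Ifit1 and the fibroblast sum alike, B6-13D2 was the lowest group and D2 the highest, and the part of the fibroblast level was not tested. With only genes of undivided reads, 11 of the list were higher background genes.

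Antigen presentation genes were mostly higher in the D2 background. Of 26 tested, 19 were called higher (73.1%, against 38.7% of all genes) and 4 lower, with 15 higher (57.7%, against 22.0%) and 3 lower background genes and medians of 0.74 and 0.27 in the pairs. Both pairs were called higher for 8 of the 26 and lower for 2, against 11.4% and 17.7% of all genes. In the B6 segment pair H2-T22 gave 0.06 and H2-D1 0.08, both with divided reads. H2-K1, a classical MHC class I heavy chain, had 38.6 to 50 CPM in the B6 background and 55.7 to 87.3 in the D2 background. H2-Q6, a nonclassical class I gene, was higher by 1.30 and 1.50. Both had divided reads. Cd74, the invariant chain of MHC class II, went the other way, at 2.68 to 4.97 CPM in the B6 background and 0.501 to 0.996 in the D2 background. The class I genes are highly similar and polymorphic, and among the listed genes with undivided reads 5 were higher background genes.

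Glycolysis genes, nuclear subunits of oxidative phosphorylation and ribosomal protein genes were mostly lower in the D2 background. Of 20 glycolysis genes, 19 were called lower (95%, against 34.7% of all genes) and 1 higher, and 14 lower ones were background genes (70.0%, against 27.6%), with medians of -0.83 and -0.23 in the pairs. Ldhb (6:142490249-142507957), a lactate dehydrogenase subunit, had 157, 159 and 177 CPM in B6, 199, 213 and 192 in B6-13D2, 74, 77.1 and 75.7 in D2, and 48.6, 47.1 and 48.1 in D2-13B6. All D2 background libraries were below all B6 background libraries, by -1.59 on average (SE 0.0344). Pfkm, a phosphofructokinase, was lower by -0.91 and -0.78, Pgk1, with divided reads, by -0.80 and -0.45, and Pkm, the pyruvate kinase gene, by -0.28 and -0.23. With undivided reads alone, 8 glycolysis genes were lower background genes. Of 77 nuclear subunits of oxidative phosphorylation, 60 were called lower (77.9%) and 3 higher, with 49 lower background genes (63.6%) and medians of -0.28 and -0.14. Cox6b1, a cytochrome oxidase subunit, was lower by -0.42 and -0.40, and Atp5mpl, an ATP synthase component, by -0.63 and -0.47. Among 13 mitochondrially encoded proteins, 4 were called lower (30.8%) and 3 higher (23.1%), and the medians had opposite sign, 0.33 and -0.36. mt-Nd3, a complex I subunit with divided reads, had 54.6 to 72.6 CPM in the B6 background and 28.5 to 41.3 in the D2 background.

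Of 85 cytosolic ribosomal protein genes, 78 were called lower (91.8%, against 34.7% of all genes) and 4 higher, and 75 lower (88.2%, against 27.6%) and 3 higher ones were background genes, with medians of -0.45 and -0.30. Only 16 of the 85 had undivided reads, and when genes of that kind were tested alone, 13 ribosomal genes were lower background genes. Rps3, with undivided reads, had 1028 to 1289 CPM in the B6 background and 819 to 951 in the D2 background, lower by -0.47 and -0.31. Rpsa had divided reads and was lower by -1.13 and -1.68. Rpl5, also with divided reads, was higher: it had 95.4 to 102 CPM in the B6 background and 363 to 482 in the D2 background. Rpl39l, an autosomal paralogue of Rpl39, was higher by 0.66 and 2.56.

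Of 40 imprinted genes, expressed from a single parental copy, 27 were called higher (67.5%, against 38.7% of all genes) and 5 lower, with 15 higher (37.5%, against 22.0%) and 3 lower background genes and medians of 0.38 and 0.31 in the pairs. H19, the maternally expressed noncoding RNA next to Igf2, had 94, 88.6 and 92.9 CPM in B6, 61.7, 60.7 and 61.3 in B6-13D2, 152, 142 and 150.5 in D2, and 279, 283 and 264 in D2-13B6. Its groups did not overlap, and on each background the line with the B6 segment was higher, the segment difference being -0.74 (adjusted p 2.38e-12). Mest (6:30723547-30748465), a paternally expressed hydrolase gene with divided reads, had 21.5 to 32.2 CPM in the B6 background and 73.9 to 89.8 in the D2 background. Slc22a18, a transporter gene, was lower by -1.56 and -1.30, at 1.8 to 3.09 against 0.228 to 1.37 CPM. With undivided reads alone, 9 imprinted genes were higher background genes.

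Signalling pathways were described by 5 lists. Of 18 MAPK feedback and immediate early genes, 15 were called higher (83.3%, against 38.7% of all genes) and 2 lower, with 6 higher (33.3%, against 22.0%) and 2 lower background genes and medians of 1.33 and -0.48. Spry2, a feedback inhibitor of receptor tyrosine kinases, was lower in both pairs, by -0.53 and -2.30, at 125, 125 and 125 CPM in B6, 91.5, 86.5 and 87.6 in B6-13D2, 58.9, 63.5 and 60.5 in D2, and 25.4, 25.9 and 24.9 in D2-13B6. Of 16 Wnt target genes, 12 were called higher (75.0%) and 3 lower, with 7 higher (43.8%) and 2 lower background genes, Lef1 among them, and medians of 1.02 and 0.04. Of 16 LIF and STAT3 pathway genes, 7 were called in each direction (43.8%), with 2 higher (12.5%) and 5 lower (31.2%) background genes and medians of -0.01 and -0.12. Of 17 BMP and Id genes, 12 were called higher (70.6%) and 3 lower, with 4 higher (23.5%) and 2 lower background genes. Their medians had opposite sign, 0.64 and -0.26, as 15 of the 17 were above 0 in the D2 segment pair and 13 below 0 in the B6 segment pair. Bmpr2, a BMP type II receptor, had 37.8 to 73 CPM in the B6 background and 80.4 to 112 in the D2 background, higher by 1.30 and 0.35. Bmp2, a BMP ligand, was higher by 2.61 in the D2 segment pair, while the B6 segment pair gave 0.39 (adjusted p 0.214). Of 18 p53 target genes, 15 were called higher (83.3%) and 2 lower, with 10 higher background genes (55.6%) and 1 lower, and medians of 0.70 and 0.11. Trp53inp1, a stress protein induced by p53, had 234 to 289.8 CPM in the B6 background and 379 to 433 in the D2 background, higher by 0.69 and 0.60.

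All 8 trophoblast genes tested were background genes, 5 higher (62.5%, against 22.0% of all genes) and 3 lower (37.5%, against 27.6%), with medians of 0.77 and 0.41. Cdx2, a trophectoderm factor, had 0.727 to 1.46 CPM in the B6 background and 3.1 to 4.93 in the D2 background, higher by 1.97 and 1.88. Hand1, a factor of trophoblast giant cells, was higher by 2.64 and 2.11. Eomes went the other way, at 9.58 to 15.7 against 3.87 to 5.71 CPM, and Krt7 was lower by -1.42 and -1.44. Of 15 primitive endoderm genes, 10 were called higher (66.7%) and 4 lower (26.7%), with 6 higher (40.0%) and 4 lower (26.7%) background genes. Their median was 1.26 in the D2 segment pair and -0.04 in the B6 segment pair, where 8 of the 15 were below 0. Lamc1 (1:153218922-153332786), a laminin chain of basement membranes, was lower by -0.71 and -0.73, at 825 to 906 CPM in the B6 background and 502 to 551 in the D2 background. Gata6, a factor that specifies the primitive endoderm, was higher by 2.05 and 0.92 at no more than 3.81 CPM, and Hnf4a by 1.34 and 1.30 at no more than 3.19 CPM. Of 8 neural genes, 5 were called higher and 3 lower, with medians of opposite sign, 0.66 and -0.24, and 2 background genes in each direction, of which the lower ones are Olig1 and Olig2.

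**Figure D4:**
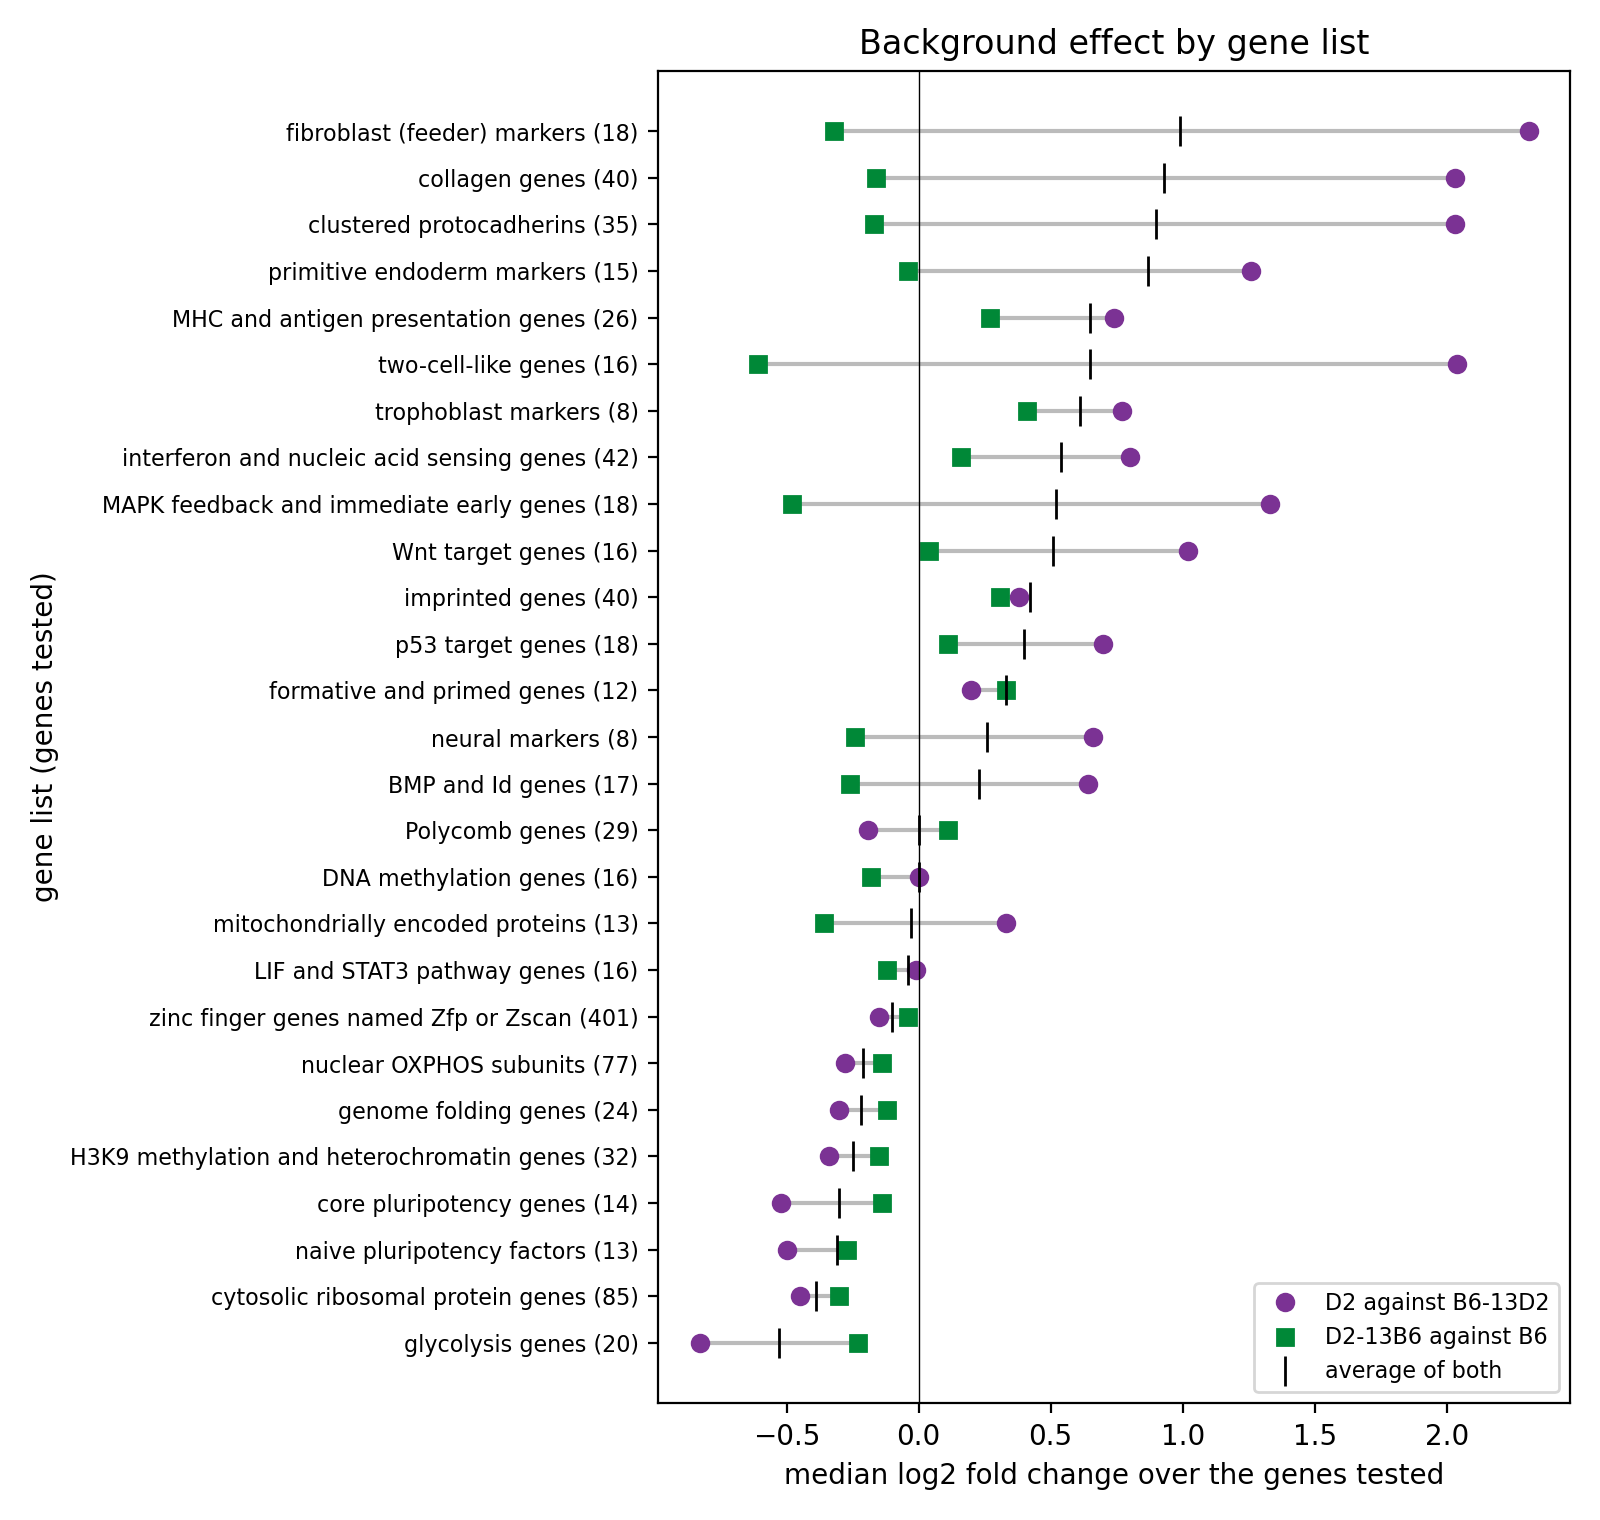
Median log2 fold change of each gene list in D2 against B6-13D2 (circles), in D2-13B6 against B6 (squares) and in their average (bars), with the number of genes tested in brackets. Fibroblast, collagen, protocadherin and two-cell-like genes lie on opposite sides of 0 in the pairs, whereas naive pluripotency, ribosomal and glycolysis genes lie below 0, and MHC, interferon and imprinted genes above 0, in both.

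Some genes carry known differences between C57BL/6J and DBA/2J. Of 5 that were tested, 4 were background genes. Alad (4:62509169-62519918), an enzyme of haem synthesis that is duplicated in DBA/2J, had 22.3, 22.5 and 25.5 CPM in B6, 31.2, 29.6 and 29.9 in B6-13D2, 45.2, 41.9 and 45.1 in D2, and 51.7, 53.3 and 52.3 in D2-13B6. The D2 background was 1.81-fold higher on average, with no library in the range of the other background. Gpnmb, a melanosome glycoprotein with a premature stop in DBA/2J, was 2.74-fold higher in the D2 background, at 27.9 to 35.5 against 69.2 to 106 CPM. Nnt (13:119335448-119408997), the nicotinamide nucleotide transhydrogenase, of which C57BL/6J lacks several exons, lies on chromosome 13. It had 43.3 to 53.4 CPM in the B6 background and 21.3 to 26 in the D2 background, and was lower by -1.05 and -1.04 in the pairs, against 0.19 for the segment allele. Another gene entry of the same name overlaps it on the annotation, so the level of Nnt is uncertain. Myo5a, the motor protein gene of the dilute coat colour, was higher by 1.79 in the D2 segment pair and gave 0.02 in the B6 segment pair (adjusted p 0.775). Ahr, the dioxin receptor, had pairs of opposite sign, 1.58 and -0.16, and was not a background gene.

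Background genes were found on every chromosome. On chromosome 13 they were 48.0% of 638 tested genes, close to the 49.6% of all genes, and the medians there were 0.08 and -0.20 in the pairs. On chromosome 11, 477 of 1386 tested genes were higher (34.4%, against 22.0% of all genes) and 161 lower background genes (11.6%, against 27.6%), or 46% in all. The median log2 fold change on chromosome 11 was 0.29 in D2-13B6 against B6 and -0.02 in D2 against B6-13D2, so the shift was in the B6 segment pair. On the Y chromosome, 14 genes had a median of 0.29 in the D2 segment pair and 0.38 in the B6 segment pair. Chromosome 4 had the largest share of background genes among the autosomes, 54.6%, and 83 of the large ones (7.29% of its genes). How far these chromosome values enter the gene lists was not tested.

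**Figure D5:**
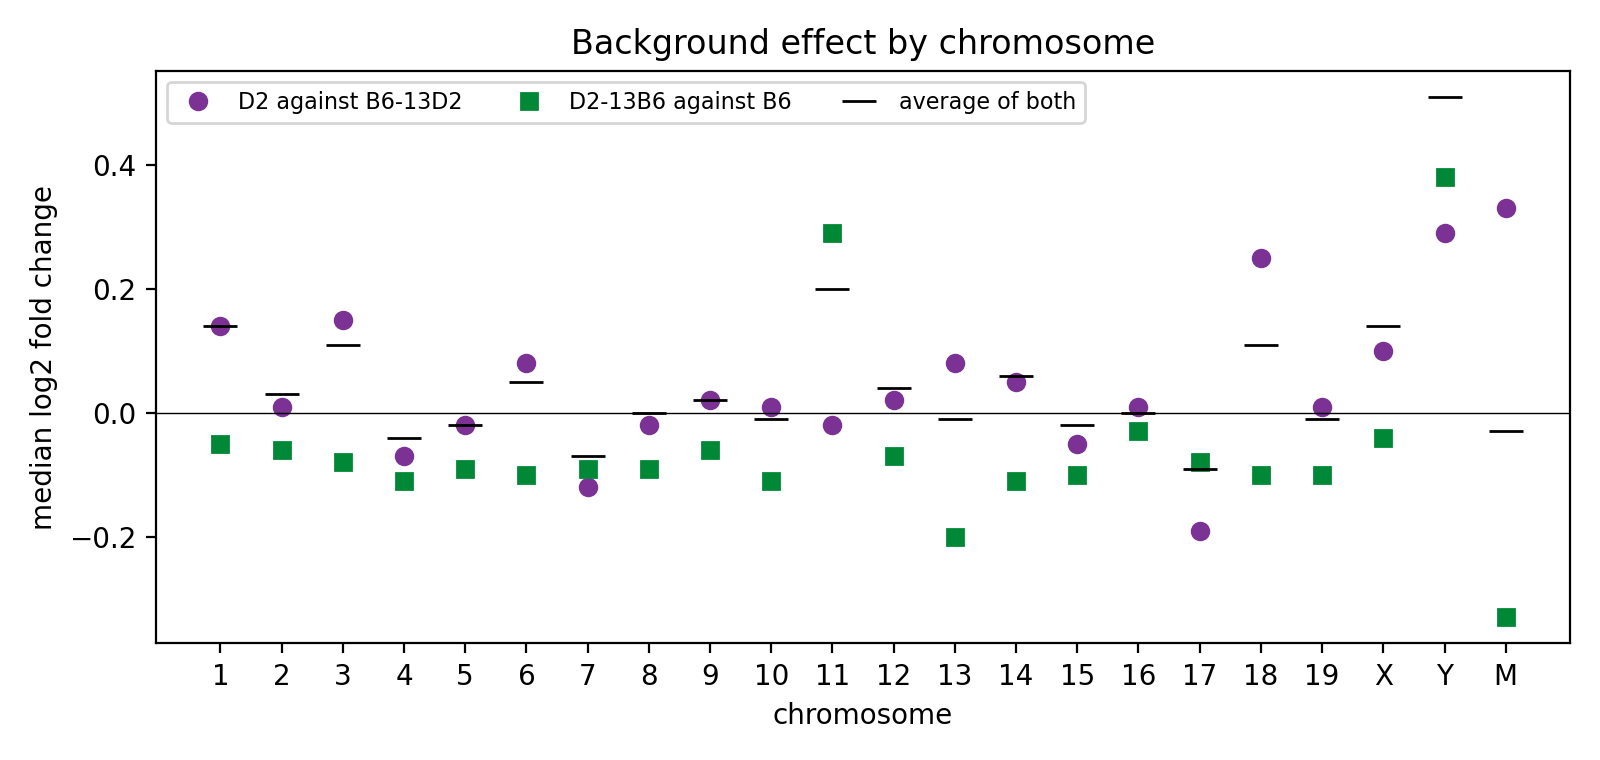
Median log2 fold change per chromosome in D2 against B6-13D2 (circles), in D2-13B6 against B6 (squares) and in their average (bars), where M is the mitochondrial genome. Chromosome 11 is at 0.29 in D2-13B6 against B6 and at -0.02 in D2 against B6-13D2, and the Y chromosome is above 0 in both pairs.

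The spread between lines was also used in place of the spread between libraries. When the 3 libraries of each group were summed, leaving 2 groups per background, 24 genes were called (0.140%), 12 higher and 12 lower, and 2508 (14.6%) at an unadjusted p under 0.05. With 2 groups per background a small p requires pairs of like sign, so that the 24 were all background genes follows from the construction. The 24 included Olig1, Olig2, Nod1, AA467197, Tgm1, Dlgap3 and Zfp534 (divided reads) among the lower, and Adam23, Hunk, Arhgef38, Ushbp1 and Rpl5 (divided reads) among the higher. Ushbp1 (8:71384272-71395802) had 0.0429 to 0.235 CPM in the B6 background and 5 to 9.35 in the D2 background. Dlgap3 (4:127169204-127237022), a postsynaptic scaffold gene, had 94.3 to 107 and 25.6 to 30.2 CPM. Mid1 (X:169685199-170005736), a ubiquitin ligase gene that reaches into the pseudoautosomal region, had 123 to 149.6 and 21.7 to 24.4 CPM, with divided reads. Padi2, which converts arginine to citrulline in proteins, had 10.5 to 13.2 and 0.333 to 1 CPM, and Tpm3-rs7, a tropomyosin-related sequence, had 0.277 to 0.546 and 118 to 142 CPM, both with divided reads. Of the 24, 10 had undivided reads and 7 were processed pseudogenes.

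At the threshold, Gm26516 was the background gene with the adjusted p closest below 0.05, with means of 2.83 CPM in B6, 3.21 in B6-13D2, 2.20 in D2 and 2.76 in D2-13B6. E230016M11Rik, with divided reads, was just outside, with 0.745, 0.535, 1.11 and 0.778 CPM. The strongest opposite calls in the pairs were of gene models with divided reads. Xlr5a, an X-linked gene of a multicopy family, had 0.0879 to 0.21 CPM in B6, 2.38 to 3.28 in B6-13D2, 0.0278 to 0.208 in D2 and 1.52 to 2.42 in D2-13B6, so that both congenic lines were high and both parental lines low. Xlr5c, its near copy, and Gm28048 on chromosome 11 had the same pattern of means. For Gm28048 the B6-13D2 libraries had 2.39, 1.34 and 0.0377 CPM, so replicate 3 lay within the B6 range of 0 to 0.132.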

How the data were processed

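RNA was measured in 12 libraries of 4 groups, grouped and numbered by their titles. The authors deposited expected counts, estimated reads per Ensembl gene, which per the file's name come from EMASE, a method that divides reads fitting several genes. The submitters' processing notes name Bowtie 1.0.0, edgeR 3.34.1 and mm10, without saying which step each served. Filters and strand use are not given in the sources used here. Symbols and positions are from GENCODE M21 (GRCm38), which matched 42462 of 43346 IDs; the 884 others held 0.361% of the reads. All columns were mapped (0 left out).

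Rounded expected counts were analysed with edgeR 4.0.16 (R 4.3.3). Genes were kept by filterByExpr on the groups (minimum count 10), libraries were scaled by TMM, and 4 group means were fitted by quasi-likelihood, with Benjamini-Hochberg adjustment over 17148 genes at 0.05. The size of a log2 fold change over the root of its F statistic gave the standard error. CPM use TMM-scaled library sizes. The script was tested on simulated data. Alternatives were an additive model, DESeq2 1.42.0, the replicate number as a block, RLE factors, a minimum absolute log2 fold change of 1, a minimum mean CPM of 1, dropping the filter, summed groups, undivided reads only, and leaving out each library.

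Members and gene lists were chosen with earlier results of these data known. Genes named by rule were, among those with no overlap between backgrounds and whole counts, the 8 highest and 8 lowest by the smaller of the pairs (mean log2 CPM of at least 2, at least 10 counts in every library), 4 per direction with at most 3 counts in every library of a background, and 1 per list that had any. The rule also named known variant genes, genes at the threshold and 3 with opposite pairs, whatever their overlap or counts. Other genes were named after their values were seen. Sequences are from RefSeq, GRCm38.p6.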

Additional observations from a re-analysis of the deposited data

Results flagged for a closer look

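For 56 of 103 named genes the background effect differed between the pairs, by a test of the difference itself in the edgeR fit (adjusted p under 0.05). Values here are the log2 fold change of D2-13B6 against B6 minus that of D2 against B6-13D2. The effect was larger in the D2 segment pair for 39 genes and in the B6 segment pair for 17. The difference equals the sum of congenic minus the sum of parental lines on the log2 scale, so it cannot be told apart from anything the congenic libraries share.

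Among fibroblast and matrix genes the difference was -2.62 for Col1a1, -2.42 for Thy1, -2.21 for Postn, -1.02 for Dcn and 0.99 for Col9a2. Among immune genes it was -2.44 for Isg15, -2.59 for Ifit1, -2.03 for Usp18, 0.95 for Aim2, -0.84 for H2-K1 and 1.32 for Cd74.

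Among pluripotency genes it was 0.54 for Tfcp2l1, 0.62 for Klf5, 0.59 for Nanog, 0.23 for Esrrb, 0.37 for Pou5f1, 0.84 for Fgf4, -1.77 for Dppa3, -0.36 for Dppa2, 0.48 for Pramel7 and 0.47 for Lef1. Among chromatin genes it was 1.14 for Dnmt3l, 0.72 for Dnmt3b, -0.26 for Resf1, 0.25 for Ezh2, 0.26 for Ncapd2, 0.42 for Zfp534, 0.42 for Zfp951 and 0.88 for Zfp993. Signalling and lineage genes gave -1.76 for Spry2, -2.22 for Bmp2, -0.95 for Bmpr2 and -1.14 for Gata6.

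Imprinted genes gave 0.31 for H19 and -0.57 for Mest. Metabolic and ribosomal genes gave -0.37 for Ldhb, 0.35 for Pgk1, 1.90 for Rpl39l, -0.55 for Rpsa and 0.34 for Rpl5. Known variant genes gave 0.20 for Gpnmb, -1.74 for Ahr, 0.62 for Alad and -1.77 for Myo5a.

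Among the remaining genes with the largest background effects, the difference was 2.14 for Mmrn2, -1.44 for Kcnf1, 1.00 for Elobl, -0.91 for Pou2f3, 0.81 for Hal, 0.64 for Ccnb1ip1, -0.47 for Adam23, -0.43 for Tnfrsf8 and 0.19 for Dlgap3. The genes chosen for pairs of opposite sign gave 9.72 for Gm28048, 8.08 for Xlr5a and 8.72 for Xlr5c, all with divided reads and at most 3.28 CPM in any library.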

How the results depend on the processing

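Against 12599 genes called, an additive model with background and segment terms called 8195, summed groups called 24, and a minimum absolute log2 fold change of 1 left 2547. That last setting left 2166 of the background genes and 1011 of the genes called in both pairs. With 1 library left out at a time, called genes numbered 12250 to 12654, background genes 8346 to 8605 and genes called in both pairs 4590 to 5031. With the replicate number as a block, these counts were 12535, 8486 and 4938. Deviations of same-numbered libraries had a mean correlation of -0.00741 over 18 pairs (-0.161 to 0.0981), so the numbers were not taken to pair libraries. DESeq2 called 12048, RLE factors 12575, no filter 13354, a minimum mean CPM of 1 11148 and undivided reads 9289. The share of called genes that was higher was 52.7%, 54.9% with RLE factors, 63.5% with the minimum fold change, 50% with summed groups and 45.8% with the additive model. RLE factors moved the median of all genes by 0.0225. Xlr5c, which was not called (-0.36), ranged from -0.65 to 0.10 with 1 library left out and was above 0 only without B6 replicate 3. Ahr, Col1a1, Thy1 and Gm26516 were no longer called with the additive model, and 84 of the 103 named genes were no longer called with summed groups. Other lists moved with undivided reads: lower core pluripotency genes from 8 to 4, higher Polycomb genes from 8 to 4 and higher protocadherins from 9 to 3. An alternative chosen after seeing the data, the parental and the congenic pair in place of the same-segment pairs, gave 11272 background genes. Summed groups leave 4 samples, the minimum mean CPM and undivided reads test fewer genes, and no filter tests more. The cause of the other changes was not tested.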
